A study of Mus musculus with 16 samples.

Results

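The nuclear genes for the subunits of the 5 oxidative phosphorylation complexes were followed in 16 liver samples of mice. Genes were taken by name: symbols of the Nduf, Sdh, Uqcr, Cox (numbers 4 to 8) and Atp5 families, matched to the array's RefSeq accessions, with a probe that was well above background on 8 or more of the 16 arrays. Of 84 protein-coding genes with such a symbol, 83 had a probe and 80 passed, out of 25801 features tested in all. They comprised 36 genes of complex I, 4 of complex II, 8 of complex III, 15 of complex IV and 17 of complex V, and lay on 19 chromosomes. Of these, 79 were well above background on all 16 arrays, and Cox8b was so on 14. Cox7b2 and Cox8c were well above background on 0 arrays, Cox4i2 on 4 of the 8 ctrl-inh arrays and 0 of the 8 miR-185-inh arrays, and Ndufb1 had no matched probe. Naming is older than some assignments: Ndufa4, counted here with complex I, is now placed in complex IV, and Cox7a2l, counted with complex IV, is a factor that joins respiratory complexes. Genes encoded in mitochondrial DNA were not analysed here.

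Total RNA was measured on Agilent arrays with 1 colour, 1 array per sample. Every mouse was male, lacked apolipoprotein E (ApoE KO) and was fed a high-fat diet, with a labelled age of 8 weeks and livers taken after 8 weeks. The 8 miR-185-inh mice had received a lentivirus that encodes an antisense RNA against the microRNA miR-185, and the 8 ctrl-inh mice are labelled as the control inhibitor. Dose, route and the cells that took up the virus are not given in the sources used here. The title of the series sets the study's question at bile acid synthesis through Cyp7a1 and FoxO1. The subunit genes were therefore not its stated subject. The labels number the samples but do not call them separate animals, and each sample is called a mouse here. The p-values therefore describe sample-to-sample spread, part of which may be technical.

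Oxidative phosphorylation runs in the inner mitochondrial membrane. Complex I (NADH dehydrogenase) and complex II (succinate dehydrogenase) pass electrons to ubiquinone, complex III hands them on to cytochrome c, and complex IV (cytochrome c oxidase) gives them to oxygen. Complexes I, III and IV pump protons as they work, and complex V, the ATP synthase, lets the protons back and makes ATP. Hepatocytes are rich in mitochondria and rely on this system for gluconeogenesis, urea synthesis and the oxidation of fatty acids. Several complex IV subunits come in a form found in liver and most tissues and a form found in heart and skeletal muscle.

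The regulators NRF1 (bound at GCGCA and GCGC with 1 base of any kind between), the ETS factor GABP, also called NRF2 (bound at CCGGAAG), and YY1 (AAGATGGCG) are known for binding promoters of these subunits, so those letters were searched on both strands of the RefSeq promoters (GRCm38.p6, from 250 bases before to 50 bases after each start). Of the 80 genes, 67 had a promoter in the table. The NRF1 letters were present for 17 of the 67 genes (25.4%), against 4.60% of all 32851 promoters and 6.38% of protein-coding ones. CCGGAAG was also present for 17 genes (25.4%), against 8.86% of all promoters and 11.6% of protein-coding ones. AAGATGGCG was present for 7 genes (10.4%), against 1.40% of all promoters, while CCAAT was present for 29 genes (43.3%), against 37.4%. The ETS and YY1 letters can share AAG and the YY1 and NRF1 letters GCG, but in 0 of the 67 genes did matches of different motifs share bases. The 120 bases upstream of the start are given below, 5′ to 3′, for 8 of the genes described, chosen to show promoters with several, 1 or none of these letters, with matches in capitals.
Ndufa8, chr2:36049339-36049458, minus strand: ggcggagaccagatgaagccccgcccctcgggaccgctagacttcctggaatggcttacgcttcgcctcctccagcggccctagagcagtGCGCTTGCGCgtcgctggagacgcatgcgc
Ndufb5, chr3:32736943-32737062, plus strand: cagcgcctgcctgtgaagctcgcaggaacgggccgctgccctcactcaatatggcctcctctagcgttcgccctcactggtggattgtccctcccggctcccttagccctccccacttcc
Sdha, chr13:74350241-74350360, minus strand: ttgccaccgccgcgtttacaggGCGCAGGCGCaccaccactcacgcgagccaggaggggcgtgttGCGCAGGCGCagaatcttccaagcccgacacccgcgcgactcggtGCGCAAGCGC
Sdhd, chr9:50603850-50603969, minus strand: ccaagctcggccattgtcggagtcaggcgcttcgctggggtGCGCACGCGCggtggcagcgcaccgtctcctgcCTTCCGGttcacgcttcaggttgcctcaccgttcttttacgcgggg
Uqcr11, chr10:80406822-80406941, minus strand: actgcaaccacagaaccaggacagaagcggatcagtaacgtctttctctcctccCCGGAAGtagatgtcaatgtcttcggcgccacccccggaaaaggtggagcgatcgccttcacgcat
Cox6a1, chr5:115348959-115349078, minus strand: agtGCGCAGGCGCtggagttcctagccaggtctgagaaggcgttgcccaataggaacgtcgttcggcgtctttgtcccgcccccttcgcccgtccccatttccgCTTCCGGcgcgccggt
Cox7c, chr13:86046796-86046915, minus strand: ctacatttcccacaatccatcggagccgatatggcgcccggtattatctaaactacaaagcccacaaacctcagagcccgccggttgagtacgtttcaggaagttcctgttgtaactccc
Atp5k, chr5:108434400-108434519, minus strand: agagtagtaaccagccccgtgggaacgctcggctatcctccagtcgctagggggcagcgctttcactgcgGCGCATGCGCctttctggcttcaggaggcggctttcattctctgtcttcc
Sdha holds 3 NRF1 matches in this stretch, Sdhd and Cox6a1 hold an NRF1 and an ETS match each, Ndufa8 and Atp5k an NRF1 match, and Uqcr11 an ETS match. Ndufb5 and Cox7c have none of the 3 motifs here. A match is a description of the letters and not a shown binding site.

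Each array carried 59305 non-control spots, of which 58.7% to 74.8% were well above background and 0 were saturated. Median signals ran from 182 to 268, and the number of arrays limits the precision. All ctrl-inh arrays lay on slide 1 with scan 1 and all miR-185-inh arrays on slide 2 with scan 2, and the effect of slide or scan cannot be told apart from that of treatment in what follows. Hepatocyte markers were bright in both groups: 8 of 9 were tested, their summed level ran from 318 to 437 in ctrl-inh livers and from 300.1 to 398 in miR-185-inh livers (linear units relative to the 75th percentile), and none was called by limma. Across all features 1223 of 25801 (4.74%) passed an adjusted p of 0.05 in limma. Of these, 320 (1.24%) were higher in the miR-185-inh mice and 903 (3.5%) were lower.

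By their brightest probes and scaled to the 75th percentile, the subunit genes lay at similar levels in the 2 groups. By limma 0 of the 80 genes passed the adjusted threshold that 4.74% of all features passed (1.24% higher and 3.5% lower), 2 had an unadjusted p under 0.05 (20.3% of all features did), and 0 had groups that did not overlap (0.86% of all features did). The share at an unadjusted p under 0.05 depended on the scaling. Under quantile normalization it was 15 of 80 (18.8%), against 19.7% of all features. When each array was scaled to its median it was 32 of 80 (40%), against 26.8%. The differences, miR-185-inh minus ctrl-inh on the log2 scale, had a median of 0.0035 over the 80 genes, with 43 above zero and 37 below, beside a median of -0.033 over all features. For 75 of the 80 genes the 95% interval of this difference lay within 1.3-fold in either direction. These intervals hold for the brightest probe and the 75th percentile scaling. They leave out the choice of probe and of scaling, which is described further on. The subunits were also measured more tightly than most features: the median SE of a difference was 0.070, against 0.10 over all features, and the median size of a difference was 0.060, against 0.11. The 5 genes with wider intervals were Ndufa7, Cox6a2, Cox8b, Cox6b2 and Atp5g3. In bulk liver RNA, fewer cells of a type and less RNA per cell cannot be told apart.

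The median difference of every complex lay near zero. It was 0.0071 for complex I (21 of 36 above zero), 0.035 for complex II (2 of 4), 0.00058 for complex III (4 of 8), -0.057 for complex IV (5 of 15) and 0.034 for complex V (11 of 17). These medians are descriptions of the genes listed, without a test of the group. The per-mouse medians of each complex, given further on, spread over at least 0.21 within either group, which is wider than the distance of any of these values from zero. The complexes were high or low in the same mice, so that spread does not measure the distance between complexes either, which was not tested.

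**Figure D1:**
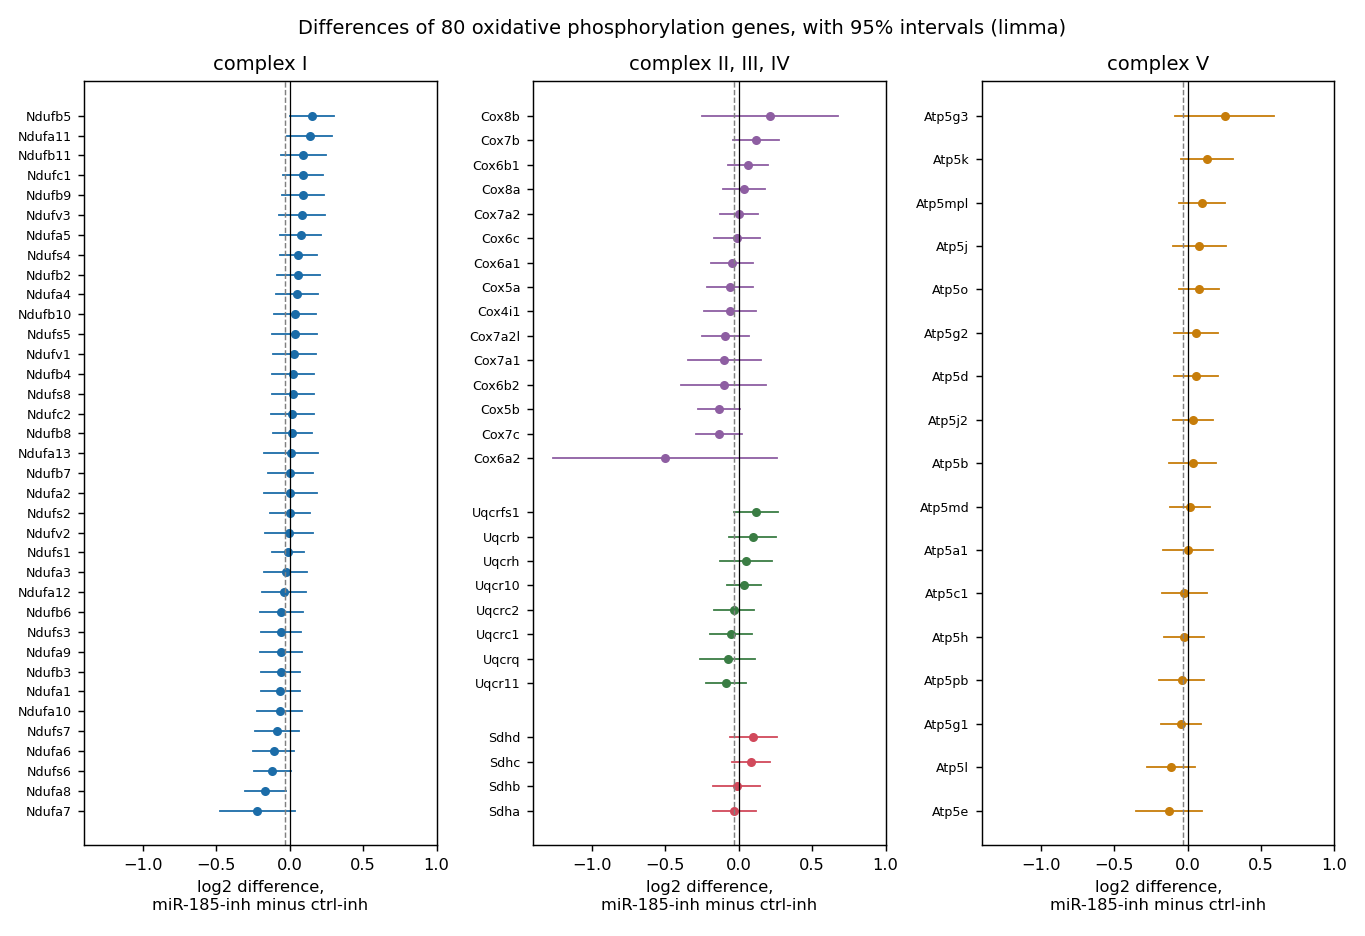
Each point is the log2 difference of 1 subunit gene, miR-185-inh minus ctrl-inh (8 mice each), ordered by size within its complex, and each bar its 95% interval from limma. The solid line marks zero and the dashed line the median of all 25801 features, -0.033; 0 of the 80 genes passed the adjusted threshold.

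Complex I genes divided into the core subunits, which carry the flavin and the iron-sulphur clusters, and the supernumerary subunits around them. The 7 core genes had a median difference of -0.0062 (3 above zero) and the 28 supernumerary genes one of 0.014 (17 above zero). Ndufa8, a supernumerary subunit on the intermembrane-space side, had the smallest p of all 80 genes. Its log2 values ran from 3.20 to 3.53 (median 3.31) in ctrl-inh livers and from 3.0 to 3.32 (median 3.23) in miR-185-inh livers. The miR-185-inh values were mostly the lower ones, with 0 of 8 above the ctrl-inh mean, but the groups overlapped. The difference was -0.17 (SE 0.066), or 0.890-fold, with adjusted p = 0.155 in limma and p = 0.0115 in the two-sided exact permutation test of that gene alone.

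Ndufb5, a membrane-arm subunit, lay between 3.31 and 3.67 in the ctrl-inh mice, with a median of 3.44, and between 3.31 and 3.75 in the miR-185-inh mice, with a median of 3.66. Compared with the ctrl-inh mean 7 of the 8 miR-185-inh mice were higher, and mouse 12 was the low one. The difference was 0.15 (SE 0.070), 1.11-fold, with adjusted p = 0.230 in limma and an exact permutation p of 0.0350. Ndufs6, a zinc-binding subunit added late in assembly, ran from 4.25 to 4.54 (median 4.41) in ctrl-inh livers and from 4.12 to 4.43 (median 4.33) in miR-185-inh livers. Its difference was -0.12 (SE 0.061) with adjusted p = 0.293 in limma, an exact permutation p of 0.0392, and 1 of 8 miR-185-inh mice above the ctrl-inh mean. Ndufa13, which carried the brightest complex I probe, ran from 4.91 to 5.33 (median 5.06) in ctrl-inh livers and from 4.77 to 5.31 (median 5.13) in miR-185-inh livers, a difference of 0.0099 (SE 0.087). Its groups lay over each other. Ndufa7 had the lowest difference of the complex, -0.22 (SE 0.12), with an interval of 0.718 to 1.03-fold.

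All 4 complex II genes were measured, and none passed the threshold. Sdha, the flavoprotein that oxidises succinate, ran from 3.77 to 4.0 (median 3.90) in ctrl-inh livers and from 3.62 to 4.07 (median 3.85) in miR-185-inh livers. Sdhb, the iron-sulphur subunit, ran from 4.34 to 4.76 (median 4.54) in ctrl-inh livers and from 4.27 to 4.68 (median 4.58) in miR-185-inh livers. The differences of these catalytic subunits were -0.030 (SE 0.069) and -0.014 (SE 0.076), with adjusted p = 0.851 and 0.944 in limma and group ranges that lay over each other. The membrane anchors that bind ubiquinone leaned the other way. Sdhc ran from 3.27 to 3.55 (median 3.41) in ctrl-inh livers and from 3.32 to 3.61 (median 3.59) in miR-185-inh livers, and its difference was 0.084 (SE 0.063). Sdhd ran from 4.14 to 4.48 (median 4.24) in ctrl-inh livers and from 4.14 to 4.52 (median 4.46) in miR-185-inh livers, and its difference was 0.099 (SE 0.076). For both anchors 6 of the 8 miR-185-inh mice exceeded the ctrl-inh mean, and the adjusted p was 0.494 and 0.506 in limma. In all 4 genes miR-185-inh mouse 12 was the lowest of its group.

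Complex III genes split evenly. Uqcrfs1, the Rieske iron-sulphur protein, ran from 3.07 to 3.49 (median 3.30) in ctrl-inh livers and from 3.24 to 3.51 (median 3.46) in miR-185-inh livers. Its difference was 0.12 (SE 0.072), 1.09-fold, with adjusted p = 0.382 in limma and an interval of 0.977 to 1.21-fold. Uqcrb, a subunit beside the ubiquinone site, lay between 4.68 and 5.02 in the ctrl-inh mice, with a median of 4.75, and between 4.68 and 5.14 in the miR-185-inh mice, with a median of 4.91, a difference of 0.094 (SE 0.075). Uqcr11, a small accessory subunit, ran from 4.71 to 5.18 (median 4.87) in ctrl-inh livers and from 4.67 to 4.88 (median 4.84) in miR-185-inh livers. Here 0 of the 8 miR-185-inh mice exceeded the ctrl-inh mean, which ctrl-inh mouse 12 raised, and the difference was -0.085 (SE 0.064) with adjusted p = 0.499 in limma. Every one of these ranges overlapped between the groups.

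Complex IV held the gene furthest below zero, the muscle form Cox6a2, and the other pairs of tissue forms. Cox5b, a zinc-binding subunit on the matrix side, ran from 4.21 to 4.42 (median 4.31) in ctrl-inh livers and from 3.91 to 4.38 (median 4.21) in miR-185-inh livers. The ctrl-inh values were close together and the miR-185-inh values reached lower, where 2 of 8 mice exceeded the mean of the ctrl-inh group. The difference was -0.13 (SE 0.069), 0.911-fold, with adjusted p = 0.289 in limma and an exact permutation p of 0.0462. Cox7b, another small membrane subunit, ran from 4.10 to 4.36 (median 4.18) in ctrl-inh livers and from 4.06 to 4.55 (median 4.34) in miR-185-inh livers, and its difference was 0.12 (SE 0.073) with adjusted p = 0.387 in limma. Cox4i1, the general form of the regulatory subunit that binds ATP, ran from 5.13 to 5.47 (median 5.28) in ctrl-inh livers and from 4.94 to 5.51 (median 5.23) in miR-185-inh livers, a difference of -0.061 (SE 0.084). These ranges overlapped throughout.

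By their brightest probes, the liver forms of these subunits had narrow intervals around zero. Cox6a1 ran from 4.84 to 5.14 (median 5.02) in ctrl-inh livers and from 4.71 to 5.09 (median 5.01) in miR-185-inh livers, with 1 miR-185-inh value missing as a spot outlier, and differed by -0.046 (SE 0.068). Cox7a2 ran from 4.39 to 4.67 (median 4.53) in ctrl-inh livers and from 4.36 to 4.66 (median 4.55) in miR-185-inh livers and differed by 0.00026 (SE 0.062), with an interval of 0.914 to 1.09-fold. Cox8a differed by 0.034 (SE 0.068), with an interval of 0.927 to 1.13-fold, while its second probe differed by 0.15 (SE 0.070). The forms of heart and muscle spread far more between mice. Cox6a2 ran from -4.35 to -0.93 (median -3.4) in ctrl-inh livers and from -4.13 to -3.23 (median -3.64) in miR-185-inh livers, with 1 ctrl-inh value missing as a spot outlier. That ctrl-inh maximum was mouse 12 alone, and without it the difference moved from -0.50 (SE 0.36) to -0.13. Cox7a1 ran from 0.44 to 1.25 (median 0.89) in ctrl-inh livers and from 0.59 to 1.29 (median 0.73) in miR-185-inh livers, with a difference of -0.097 (SE 0.12), and Cox8b ran from -5.82 to -4.04 (median -4.84) in ctrl-inh livers and from -5.35 to -4.21 (median -4.58) in miR-185-inh livers, with a difference of 0.21 (SE 0.22). Their intervals were 0.416 to 1.2-fold for Cox6a2, 0.787 to 1.11-fold for Cox7a1 and 0.842 to 1.6-fold for Cox8b. Of 11 muscle markers 4 were tested, all 4 below zero (median difference -0.27, none called, Myh6 -0.45 and Tnnt3 -0.35). Of the 4, 2 had an unadjusted p under 0.05 in limma, as did 20.3% of all features. Their summed level ran from 0.355 to 0.602 in ctrl-inh and from 0.272 to 0.509 in miR-185-inh livers. Ckm, Mylpf, Myh1 and Mb were not among the markers that passed the filter. The part of muscle RNA in these values was not tested. Cox4i2, the form known from lung, was too dim for the filter. It averaged -5.88 in ctrl-inh livers, with 4 of 8 arrays well above background, and -6.57 in miR-185-inh livers, with 0 of 8. The means stood 1.62-fold apart, but both include values near background, so the size of the difference is uncertain.

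The ATP synthase consists of a catalytic F1 head and a membrane part with its stalks. The 5 F1 genes had a median difference of 0.0030 (3 above zero) and the other 12 genes one of 0.048 (8 above zero). Atp5g1, Atp5g2 and Atp5g3 encode the same mature ring subunit c from separate genes. Atp5g3 ran from 2.37 to 3.36 (median 2.64) in ctrl-inh livers and from 2.58 to 3.47 (median 2.96) in miR-185-inh livers, and its difference of 0.25 (SE 0.16), 1.19-fold, was the highest of the 80 genes. Its groups overlapped widely, the adjusted p was 0.404 in limma and the interval reached from 0.943 to 1.5-fold. Atp5g1 ran from 4.62 to 4.88 (median 4.68) in ctrl-inh livers and from 4.46 to 4.81 (median 4.73) in miR-185-inh livers, a difference of -0.044 (SE 0.064). Atp5g2 differed by 0.057 (SE 0.071) by its brightest probe and by 0.19 (SE 0.087) by its second. Atp5h, a subunit of the peripheral stalk with the brightest complex V probe, ran from 4.99 to 5.35 (median 5.13) in ctrl-inh livers and from 4.95 to 5.23 (median 5.15) in miR-185-inh livers, a difference of -0.024 (SE 0.064). Subunits e and g, encoded by Atp5k and Atp5l, hold ATP synthase dimers together. By their brightest probes Atp5k differed by 0.13 (SE 0.085) with adjusted p = 0.414 and Atp5l by -0.11 (SE 0.077) with adjusted p = 0.442 in limma.

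**Figure D2:**
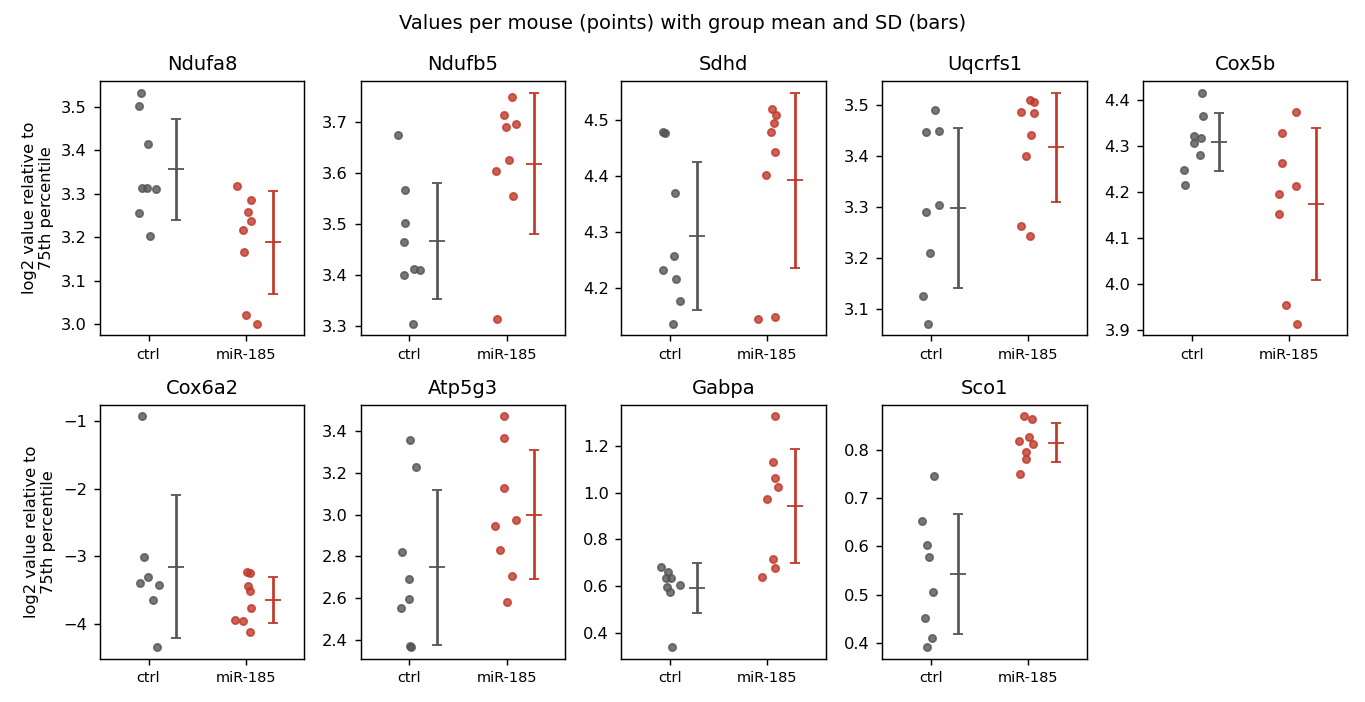
Log2 values relative to each array's 75th percentile for 7 subunit genes and for Gabpa and Sco1, 1 point per mouse, with the group mean and SD beside the points (8 mice a group; each panel has its own vertical scale). Of these 9 genes only Gabpa and Sco1 passed limma's adjusted threshold, and only Sco1 has groups that do not overlap.

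Where a gene had several probes, the choice of probe mattered most for Cox7c, a small complex IV subunit. Its brightest probe ran from 4.34 to 4.73 (median 4.51) in ctrl-inh livers and from 4.16 to 4.57 (median 4.35) in miR-185-inh livers, a difference of -0.13 (SE 0.073) with adjusted p = 0.320 in limma. Its second probe by brightness ran from 3.20 to 3.58 (median 3.37) in ctrl-inh livers and from 3.56 to 4.23 (median 3.94) in miR-185-inh livers. There 7 of the 8 miR-185-inh mice exceeded every ctrl-inh mouse, and the means were 3.38 ± 0.16 (SD, n = 8) and 3.91 ± 0.22 (SD, n = 8). The difference was 0.54 (SE 0.095), 1.45-fold, with adjusted p = 0.00645 in a limma fit over all 35482 passing probes, a fit chosen after the values were seen. The third probe ran from 1.70 to 2.35 (median 1.98) in ctrl-inh livers and from 2.01 to 2.87 (median 2.49) in miR-185-inh livers, and the difference was 0.48 (SE 0.13), 1.40-fold, with adjusted p = 0.0385 in the same fit, 0.0553 under quantile normalization and 0.0754 with normexp. Both dimmer probes were higher in miR-185-inh within either slide row, by 0.58 and 0.50 for the second and by 0.52 and 0.45 for the third. The second probe passed in 16 of 16 fits that left out 1 mouse. The third passed in 5 of 16, those lacking mouse 8, 11 or 12 of the ctrl-inh group, or 3 or 12 of the miR-185-inh group, and its adjusted p in limma ran from 0.0129 to 0.0737 over the 16.

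In that probe-level fit 3 of the 109 probes of the subunit genes passed, all higher in miR-185-inh (4.3% of all probes were called, 1.08% higher and 3.22% lower), and 0 were called lower. The remaining one was the second Atp5k probe. It ran from 3.13 to 3.52 (median 3.24) in ctrl-inh livers and from 3.4 to 3.94 (median 3.60) in miR-185-inh livers, with all 8 miR-185-inh mice above the ctrl-inh mean. The difference was 0.32 (SE 0.085), with adjusted p = 0.0417 in limma, and over the 16 fits without 1 mouse the adjusted p ran from 0.0257 to 0.0792, passing in 5, those without the same 5 mice as for the third Cox7c probe. For Atp5l the fourth of 5 probes was higher by 0.30 (SE 0.088) with adjusted p = 0.0642 in limma (0.0478 without miR-185-inh mouse 3, 0.0468 under quantile normalization and 0.0146 with normexp), against -0.11 by the brightest. Over the 22 genes with several passing probes, 14 had all probes on one side of zero, and the 29 dimmer probes had a median difference of 0.064 with 22 above zero. The 9681 dimmer probes of all features had a median of -0.049. Pseudogenes of Cox7c, Atp5k and Atp5l are listed in RefSeq. Which transcripts each probe can also bind was not examined, so the level of these 3 genes is uncertain from the array. Probes stood apart in other genes too. The second probes of Atp5j2, Atp5g2 and Cox8a differed by 0.23, 0.19 and 0.15, against 0.038, 0.057 and 0.034 by the brightest. Their adjusted p in the probe-level limma fit was 0.162, 0.226 and 0.256. Of all 29 dimmer probes, 21 had a higher difference than the brightest probe of their gene.

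**Figure D3:**
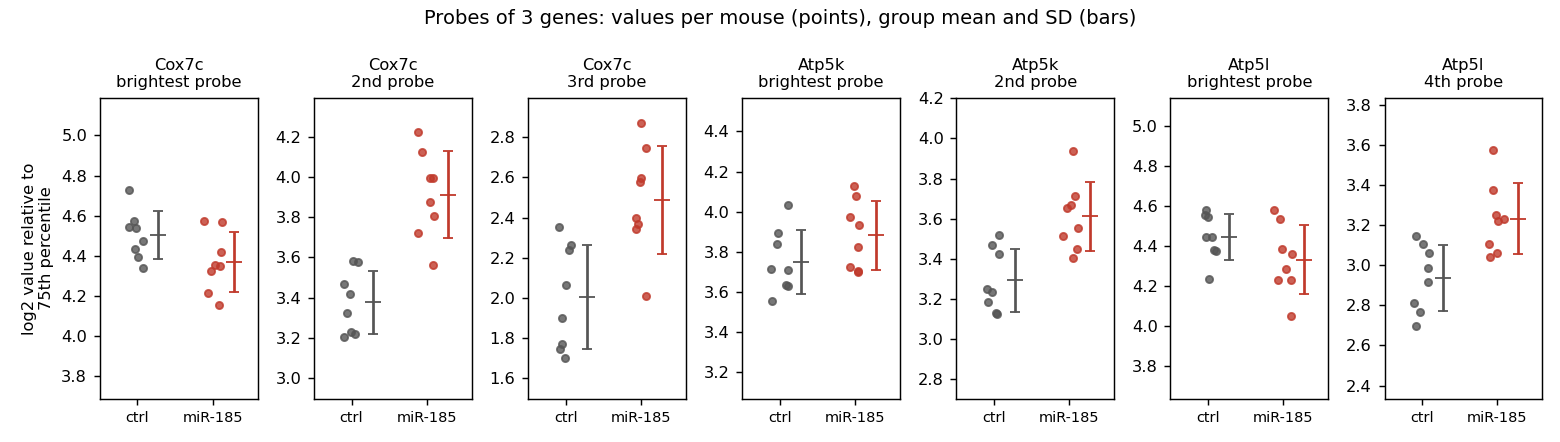
Log2 values relative to each array's 75th percentile for 3 Cox7c, 2 Atp5k and 2 of the 5 Atp5l probes, 1 point per mouse, with group mean and SD beside the points; every panel spans the same number of log2 units. The brightest probes overlap between groups, while 7 of 8 miR-185-inh mice lie above every ctrl-inh mouse for the second Cox7c probe.

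Between mice, the 5 complexes were high or low together. For each mouse the median over the 80 genes of the value minus the gene's mean over all mice was taken. It ran from -0.10 (mouse 4) to 0.14 (mouse 12) in the ctrl-inh group and from -0.19 (mouse 12) to 0.099 (mouse 1) in the miR-185-inh group. Under the percentile scaling the group means, -0.0019 ± 0.096 (SD, n = 8) and -0.00041 ± 0.12 (SD, n = 8), differed by far less than that spread. With the array median they were -0.057 ± 0.059 in ctrl-inh and 0.055 ± 0.11 in miR-185-inh (SD, n = 8 each). Under quantile normalization they were -0.0095 ± 0.014 in ctrl-inh and 0.0026 ± 0.012 in miR-185-inh (SD, n = 8 each). With either of these scalings the distance between the means was not small beside the SDs. The values that follow are again on the percentile scaling. In miR-185-inh mouse 12 the medians of the 5 complexes ran from -0.24 to -0.18, in miR-185-inh mouse 7 from -0.23 to -0.15, and in ctrl-inh mouse 12 from 0.11 to 0.19. In the miR-185-inh group mouse 12 gave the lowest value for 51 of the 80 genes and mouse 7 for 24. In the ctrl-inh group mouse 12 gave the highest value for 40 genes and mouse 8 for 31. The SD between mice was larger in miR-185-inh for 64 of the 80 genes, with a median of 0.14 against 0.12 in ctrl-inh. Over all features the median SD was likewise larger, 0.21 against 0.19. Under quantile normalization the medians for the 80 genes were 0.070 and 0.062.

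Other abundant gene groups shared some of these extreme mice, above all miR-185-inh mouse 12. The median of 81 cytosolic ribosomal protein genes ran from -0.11 to 0.17 in ctrl-inh and from -0.23 to 0.15 in miR-185-inh livers, and was lowest in the same mice, number 4 of the former group and number 12 of the latter. Hepatocyte markers, at -0.29, and the tricarboxylic acid cycle genes, at -0.19, were lowest of the miR-185-inh group in mouse 12 as well. The ctrl-inh extremes differed between groups of genes: hepatocyte markers were lowest in mouse 3, and the tricarboxylic acid cycle genes were highest in mouse 8. The median of all features moved less, from -0.032 to 0.080 and from -0.076 to 0.031. Under quantile normalization, which gives every array the same distribution of values, the range of the subunit median shrank from 0.24 to 0.037 in ctrl-inh and from 0.29 to 0.030 in miR-185-inh livers. Without miR-185-inh mice 7 and 12, left out together after their values were seen, the median difference over the 80 genes was 0.072 with 60 above zero. In limma 0 genes then passed, 13 of the 80 (16.2%) had an unadjusted p under 0.05, as did 18.5% of all features in that fit, and the smallest adjusted p was 0.0844.

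**Figure D4:**
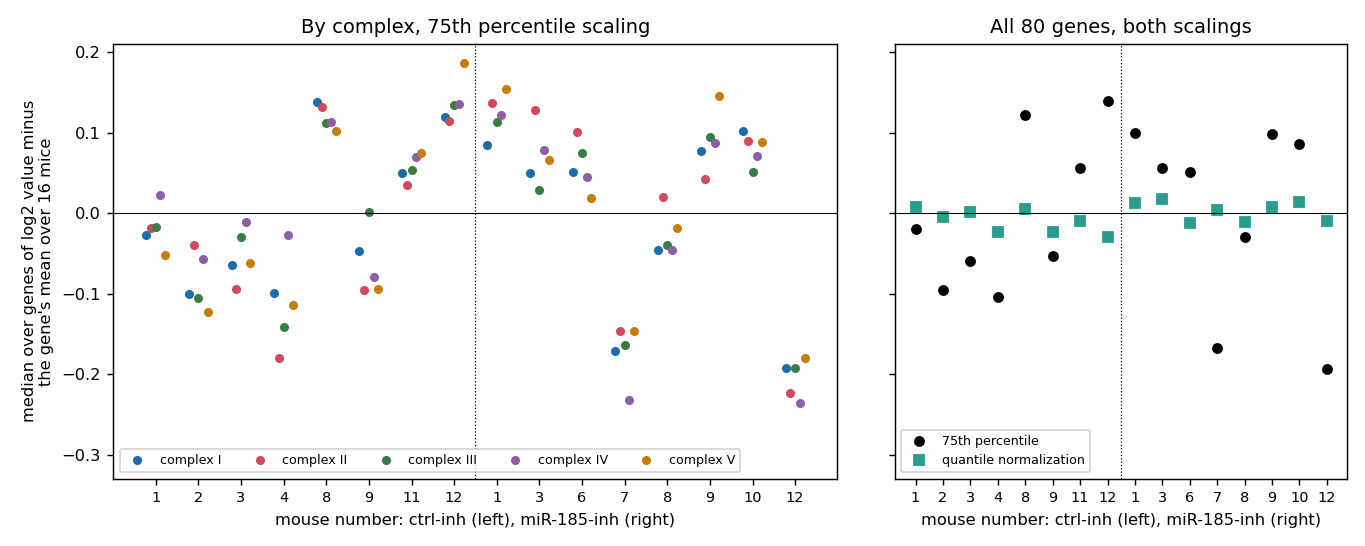
Left, for every mouse, the median over the genes of each complex of the log2 value minus the gene's mean over 16 mice. Right, the same over all 80 genes under the 75th percentile scaling and under quantile normalization; the spread of 0.24 (ctrl-inh) and 0.29 (miR-185-inh) between mice narrows to 0.037 and 0.030.

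The slides held their arrays in 2 rows of 4, and the subunit difference had opposite signs in the 2 rows. Within row 1 the median difference over the 80 genes was 0.089, with 67 above zero, and within row 2 it was -0.082, with 17 above zero. By complex the medians were 0.091 and -0.088 for complex I, 0.13 and -0.053 for complex II, 0.067 and -0.11 for complex III, 0.032 and -0.078 for complex IV, and 0.11 and -0.051 for complex V. Over all features they were 0.0069 and -0.070. On the ctrl-inh slide the 4 row 1 mice had subunit medians from -0.10 to -0.020 and the 4 row 2 mice from -0.053 to 0.14. On the miR-185-inh slide the rows averaged 0.0094 ± 0.12 and -0.010 ± 0.14 (SD, n = 4 each). In 51 of the 80 genes the difference was above zero in row 1 and below zero in row 2, and in 1 gene it was the reverse. The genes were high or low together within a mouse, so these are not independent counts. On the row 1 ctrl-inh arrays 68.6% to 74.8% of spots were well above background, against 58.7% to 67.1% on the other arrays. Whether this had a part in the row differences was not tested. A limma test of row by treatment called 0 of the 80 genes (0.376% of all features), with a smallest adjusted p of 0.285 and 3 genes at an unadjusted p under 0.05 (14.8% of all features).

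**Figure D5:**
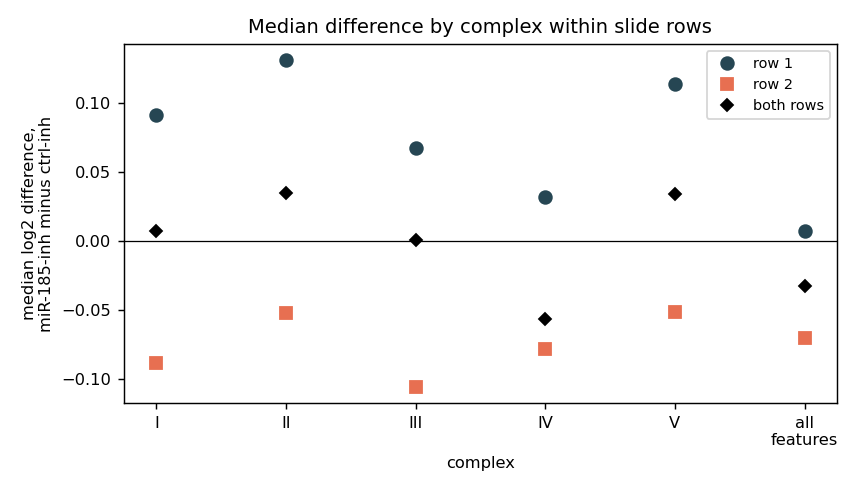
Median log2 difference, miR-185-inh minus ctrl-inh, over the genes of each complex and over all 25801 features, within slide row 1, within slide row 2 (4 against 4 mice each) and over both. In every complex the row 1 median lies above zero and the row 2 median below it.

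The scale set the sign of many differences: 43 of the 80 genes lay above zero under the 75th percentile and 72 with the array median. Scaling each array to its median in place of its 75th percentile moved the median of all features from -0.033 to 0.078 and that of the 80 genes from 0.0035 to 0.11. Relative to all features the 80 genes were 0.036 higher under both. With median scaling 7 genes passed in limma, all higher (Ndufb5, Uqcrfs1, Cox7b, Ndufc1, Sdhc, Ndufb11 and Atp5k), while 9.63% of all features were called, 1986 higher and 499 lower in place of 320 and 903. The split over all features was 549 higher and 596 lower with normexp background correction and 396 and 458 under quantile normalization. Under quantile normalization the SE of the 80 genes fell to a median of 0.044, the median difference was 0.019 (0.0035 under the 75th percentile), and Ndufa8 passed as lower at -0.17 with adjusted p = 0.0279 in limma.

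Among the genes that build or control the complexes, 2 passed in limma and both were higher in miR-185-inh, as were 1.24% of all features. Sco1, which delivers copper to complex IV, ran from 0.39 to 0.74 (median 0.54) in ctrl-inh livers and from 0.75 to 0.87 (median 0.81) in miR-185-inh livers, so the groups did not overlap. Its difference was 0.27 (SE 0.057), with adjusted p = 0.0136 in limma and an exact permutation p of 0.000155, the smallest these groups can give. It passed in all 16 fits without 1 mouse and in 11 of 15 other settings. A second, dimmer Sco1 probe was higher by 0.13 with an exact permutation p of 0.237. Of the 23 complex IV assembly genes tested Sco1 was the only one called, and the list's median was 0.033. In that list 4 genes had an unadjusted p under 0.05 in limma (20.3% of all features did), 2 of them above zero.

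Gabpa, the DNA-binding subunit of the ETS factor GABP, ran from 0.34 to 0.68 (median 0.62) in ctrl-inh livers and from 0.64 to 1.33 (median 1.0) in miR-185-inh livers. All 8 miR-185-inh mice exceeded the ctrl-inh mean. The difference was 0.35 (SE 0.094), with adjusted p = 0.0396 in limma and an exact permutation p of 0.000777. The call held in 3 of the 16 fits without 1 mouse, those without miR-185-inh mouse 1, 9 or 10, and was lost on leaving out any of the other 13, with adjusted p up to 0.0797. It held in 8 of 15 other settings. Its second probe differed by -0.0073, with an exact permutation p of 0.943. The other 25 regulators of mitochondrial biogenesis were not called, yet 22 of the 26 lay above zero and their median was 0.12. Over all features 10825 of 25801 lay above zero. Of the 26 regulators, 4 had an unadjusted p under 0.05 in limma, all 4 above zero, while 20.3% of all features had such a p. The regulators included Hcfc1 (0.35, adjusted p = 0.0780 in limma), Esrra (0.24, adjusted p = 0.152), Yy1 (0.15), the coactivator gene Ppargc1a (0.017), Tfam (0.045), which packages mitochondrial DNA, and Nrf1 (-0.0034). Dimmer probes well above background on all 16 arrays lay below zero for Tfam (-0.11 and -0.080), Ppargc1a (-0.13) and Nrf1 (-0.053). The subunit genes with the ETS letters CCGGAAG in their promoter had a median difference of 0.0044, with 9 of 17 above zero, and those without them one of 0.014, with 27 of 50 above zero. For the NRF1 letters the medians were 0.023 (9 of 17) and 0.0071 (27 of 50).

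No gene of the other lists around the complexes passed in limma (4.74% of all features did). Assembly factors had 0 called of 16 tested for complex I (median -0.022), 0 of 4 for complex II (-0.0040), 0 of 5 for complex III (0.10) and 0 of 5 for complex V (-0.0052). Those with the smallest p were Ndufaf5 (-0.25, adjusted p = 0.155 in limma) and Tmem186 (0.18) for complex I, Sdhaf2 (0.31, adjusted p = 0.125 in limma) and Sdhaf3 (-0.086) for complex II, Uqcc3 (0.14) and Ttc19 (0.13) for complex III, and Atpaf2 (-0.12) and Fmc1 (0.090) for complex V. The tricarboxylic acid cycle, which feeds electrons to the chain, had 0 called of 19 (median 0.0063, Idh3a 0.19 and Dlat 0.19). Carriers, coenzyme Q and cytochrome c genes had 0 of 28 (Coq5 0.15 and the ATP/ADP exchanger gene Slc25a4 0.15). Mitochondrial ribosomal proteins, which make the subunits encoded in mitochondrial DNA, had 0 of 77 (median 0.0095, Mrpl39 0.19 and Mrps12 -0.18), and cytosolic ribosomal proteins had 0 of 81 (median 0.0024, Rplp1 -0.28 and Rps2 -0.23). Leaving out 1 mouse brought 2 of these genes past limma's threshold: Mrpl39 without ctrl-inh mouse 8 (0.22, adjusted p = 0.0467), and Rplp1 without miR-185-inh mouse 1 (-0.31, adjusted p = 0.0346) or mouse 3 (-0.32, adjusted p = 0.0260). At an unadjusted p under 0.05 the counts were 4, 1, 2 and 0 for the assembly lists in that order, 2 for the cycle, 2 for the carriers, 10 for the mitochondrial and 6 for the cytosolic ribosome. Of all features 20.3% had such a p.

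Of the 3 white blood cell lists, neutrophil markers had the median furthest from zero. All 11 neutrophil markers tested lay below zero (median difference -1.01), and 2 passed in limma, Ltf (-1.97, adjusted p = 0.0239) and Ngp (-1.22, adjusted p = 0.0427), beside 3.5% of all features called lower. Of the 11, 7 had an unadjusted p under 0.05 in limma, as did 20.3% of all features. The summed level of the neutrophil markers ran from 11.4 to 55.5 in ctrl-inh and from 7.67 to 50.7 in miR-185-inh livers, so the groups overlapped. All 10 Kupffer cell and macrophage markers tested also lay below zero (median -0.14), with none called and 0 at an unadjusted p under 0.05. The 7 pancreatic acinar markers tested went both ways, 3 above zero and 4 below. Of these markers, 6 had an unadjusted p under 0.05 (20.3% of all features did), and 2 of the 6 lay above zero, Cela2a at 0.61 and Amy2a5 at 0.21. Of them only Cel passed in limma, as lower (-0.48, adjusted p = 0.0170). Lymphocyte, erythroid, stellate, endothelial, cholangiocyte and adipocyte markers had 0 called of 7, 4, 7, 6, 5 and 4 tested, and 0 at an unadjusted p under 0.05. Whether these cells had a part in the subunit values was not tested.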

How the data were processed

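Liver RNA of 16 samples was read on 1-colour Agilent arrays. Per the file headers, the deposited scanner files hold for each spot an intensity that the authors' Feature Extraction 11.5.1.1 had background-subtracted, while version 9.1 stands in the submitters' processing notes. The authors' deposited value table is on a log2 scale and equals log2 of that intensity minus 1 constant per array (column medians -1.30 to -1.22), and what set that constant is not known from these sources.

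From the log2 intensity of each non-control spot its array's 75th percentile was subtracted. Outlier spots were left out, spots of a probe averaged, probes kept if 8 or more of 16 arrays had them well above background, and a gene represented by its brightest probe. Names came from RefSeq accessions without version (GRCm38.p6). Of 55681 probes 26762 were named, with 20284 symbols. Probe coordinates were not used.

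Groups came from the treatment label. The test was two-sided, by lmFit and eBayes of limma 3.58.1 under R 4.3.3 (Benjamini-Hochberg over 25801 features, threshold 0.05), and single genes also with an exact permutation test over 6435 splits. The pipeline was tested on simulated data. Members, gene lists and tests were chosen with earlier results of these data known. Named genes were, within each complex, the 3 with the smallest p and the brightest, all of complex II, the tissue forms and the subunit c genes, any gene passing the threshold, and from each pathway list those passing or else the 2 with the smallest p. Other genes and probes were named after their values were seen. Alternatives were other background corrections, scalings, filters, probe rules, eBayes settings and array weights, slide row and column, mice left out, and a replicate block. Normexp (offset 50) was run on the median spot signal in place of the mean. A block for slide could not be fitted, since each slide holds 1 group.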

Additional observations from a re-analysis of the deposited data

Results flagged for a closer look

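Of 102 groups examined, for the named genes and for the medians of the complexes, 2 of them with a mouse missing, 6 held 1 mouse set apart from its neighbour by more than Dixon's 95% limit for a group of that size. Chance gives about 5% of groups such a mouse. Uqcr11 was highest in ctrl-inh mouse 12 at 5.18, with the next mouse at 4.92. Cox6a2, missing in 1 ctrl-inh mouse, was highest in ctrl-inh mouse 12 at -0.93, with the next at -3.01. Ndufb5 was lowest in miR-185-inh mouse 12 at 3.31, with the next at 3.55. Cox7a1 was highest in miR-185-inh mouse 10 at 1.29, with the next at 0.92. Outside the subunits, Sdhaf2, which adds the flavin to Sdha, was lowest in ctrl-inh mouse 2 at -0.71, with the next at -0.14, and Gabpa was lowest in ctrl-inh mouse 12 at 0.34, with the next at 0.57.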

How the results depend on the processing

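The count of subunit genes passing in limma was 0 in the settings tried except the following: 1 lower under quantile normalization (Ndufa8), 1 lower with the percentile over detected probes (Ndufa8, adjusted p = 0.0401), 1 lower without a filter on dim probes (Cox4i2, adjusted p = 0.0366), 7 higher with the array median, and 2 genes higher (Cox7c and Atp5k) with each probe as its own feature, added after the data were seen. The array median also moved the median difference to 0.11 over all 80 genes, 0.12 for complex I and 0.11 for complex III. Leaving out 1 mouse at a time gave 0 genes in 16 of 16 fits, with medians over the 80 genes from -0.012 to 0.036.

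Some differences of genes that did not pass changed sign. With the array median they were Atp5g1 0.067, Atp5h 0.086, Cox4i1 0.050, Cox6a1 0.067, Cox7a1 0.014, Sdha 0.081, Sdhb 0.097, Uqcr11 0.025 and Sdhaf3 0.024. With array weights Atp5h was 0.0072 and Sdhb 0.020. With the mean of a gene's probes Atp5l was 0.067, Sdhb 0.015 and Cox7c 0.30 (adjusted p = 0.0524 in limma). With normexp Atp5g2 was -0.010 and Ndufa13 -0.038, and with the percentile over detected probes Cox7a2 was -0.025 and Ndufa13 -0.016. With quantile normalization Atp5h was 0.032, Cox4i1 0.0031 and Sdhb 0.014. In row 1 alone Atp5h was 0.022, Cox4i1 0.093, Sdha 0.094, Sdhb 0.077 and Uqcr11 0.012. In row 2 alone Atp5g2 was -0.046, Cox7a1 0.059, Cox7a2 -0.047, Cox8a -0.043, Ndufa13 -0.079 and Sdhc -0.00016. Without miR-185-inh mice 7 and 12 Atp5g1 was 0.018, Atp5h 0.023, Cox4i1 0.020, Sdha 0.032 and Sdhb 0.052. Leaving out 1 mouse, Cox7a2 ran from -0.020 to 0.024, Sdhb from -0.043 to 0.024, Atp5h from -0.046 to 0.0049, Ndufa13 from -0.020 to 0.058 and Sdha from -0.061 to 0.0032. Among list genes, Mrpl39, Mrps12, Rplp1, Rps2 and Dlat also passed in limma under some of the scalings, background corrections or weights, and Tmem186, Sdhaf2, Uqcc3, Idh3a, Coq5 and Slc25a4 with the array median. Gabpa did not pass without a filter on dim probes, with the mean of probes, with slide row and column, within either row, without miR-185-inh mice 7 and 12, or with the block, and Sco1 did not with the mean of probes, within either row or with the block. The causes of these changes were not tested.

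Mouse numbers are shared by 5 pairs across the groups. Same-numbered mice correlated with r from -0.13 to 0.11 in their deviations, and 1 of 5 correlated best with its own number. A check on 5 pairs cannot tell whether same-numbered mice were paired, and the labels do not say. With a replicate block over those 5 pairs, 0 features passed in limma, 0 of the 80 genes and 10.1% of all features had an unadjusted p under 0.05, the median over the 80 genes was -0.018 and Ndufa13 was -0.048. Precision is limited by the number of arrays and, for Cox8b and Cox4i2, by signals near background.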
